A study of Canis lupus familiaris with 24 samples.

Results

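TLR2, TLR4, TLR7 and TLR9 are the 4 Toll-like receptor genes that could be named on a canine expression array. They were followed here through drug-sensitive and drug-resistant phases of B-cell lymphoma in 4 dogs. Members were all non-control probes whose transcript accession belongs to 1 of these genes, which gave 6 of 43603 probes and 4 of 832 genes with a symbol. Membership used no measured value, but the receptors were chosen with earlier results of these data known. TLR2 (NM_001005264) had the probes A_11_P0000020115 and A_11_P053706, TLR4 (NM_001002950) had A_11_P0000019677 and A_11_P051121, TLR7 (NM_001048124) had A_11_P050921, and TLR9 (NM_001002998) had A_11_P0000019724. All 6 lay well above background on all 24 arrays, so no receptor depended on a filter for dim probes. Where a gene had a pair of probes, its brighter one is the value given unless stated.

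Toll-like receptors are membrane proteins of innate immunity that recognise molecules typical of microbes and, in some settings, of damaged cells. TLR2 and TLR4 sit at the cell surface and bind lipoproteins and lipopolysaccharide, respectively, and both are best known from macrophages and neutrophils. TLR7 and TLR9 sit in endosomes, bind single-stranded RNA and DNA rich in unmethylated CpG, and are known from B cells and plasmacytoid dendritic cells. All 4 signal through the adaptor MyD88 to NF-kB and inflammatory cytokines, and TLR4 also reaches the type I interferon pathway through a separate adaptor, as TLR7 and TLR9 do in plasmacytoid dendritic cells.

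Peripheral lymph nodes were sampled by fine-needle aspiration in each dog in both phases. Dog 1 was a Shih Tzu (male, 10 years), dog 2 a Doberman (male, 9 years), dog 3 a French Bulldog (castrated male, 3 years) and dog 4 a French Bulldog (spayed female, 5 years). All 4 had B-cell lymphoma, and the labels do not name the drugs given to any of them. Every combination of dog and phase was run on 3 one-colour arrays, which makes 24, and the labels do not say whether the 3 were separate aspirates. P-values within a dog therefore measure the spread between arrays, which may be technical. Aspirates are mixtures of cells, so fewer cells of a type and less RNA per cell cannot be told apart in any value below.

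Levels are log2 of the processed spot signal minus the 75th percentile of its array, so 0 is the signal that 75% of probes did not exceed. This percentile lay between 676 and 1118 signal units, 71.0% to 80.9% of spots were well above background, and 0 spots were saturated. Precision within a dog rests on 3 arrays of each phase, and across dogs on 4 animals. In all, 27719 genes or unnamed transcripts were tested, and calls within a dog needed a 2-fold difference together with an adjusted p (Benjamini-Hochberg, limma) under 0.05. That rule called 3308, 3830, 1871 and 1542 transcripts in dogs 1 to 4, of which 32.1%, 28.8%, 20.2% and 73.0% were higher in the resistant phase. Scaling to the median gave 46.7%, 40.5%, 28.0% and 66.3%, and quantile normalisation gave 46.6%, 36.3%, 26.9% and 50.9%. Over these and the background alternatives the share lay between 9.51% and 28.0% for dog 3 and between 44.4% and 73.0% for dog 4. The median difference over all transcripts was -0.060, 0.11, 0.027 and 0.066 in dogs 1 to 4, and 0.12, 0.26, 0.12 and 0.0061 after median scaling. These differences are resistant minus sensitive on the log2 scale, as are all below. In dogs 1 to 3 at least 1 slide held arrays of both phases. In dog 4 the 3 resistant arrays lay alone on a slide of a later scan session, so phase, slide and session cannot be told apart there.

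None of the 4 receptors passed the 2-fold rule in any dog, that is 0 of 16 differences, where the rule called 11.9%, 13.8%, 6.75% and 5.56% of all transcripts in dogs 1 to 4. Smaller differences were measurable. An adjusted p under 0.05 was reached by 13 of the 16, and in the same 13 the arrays of the phases did not overlap. This is a common outcome on these arrays: 55.0%, 59.7%, 44.8% and 46.3% of all transcripts had such a p in dogs 1 to 4, and 62.2%, 68.7%, 55.2% and 56.4% had no overlap. TLR9 was higher in the resistant phase of all 4 dogs, and TLR2, TLR4 and TLR7 differed in sign between dogs.

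**Figure D1:**
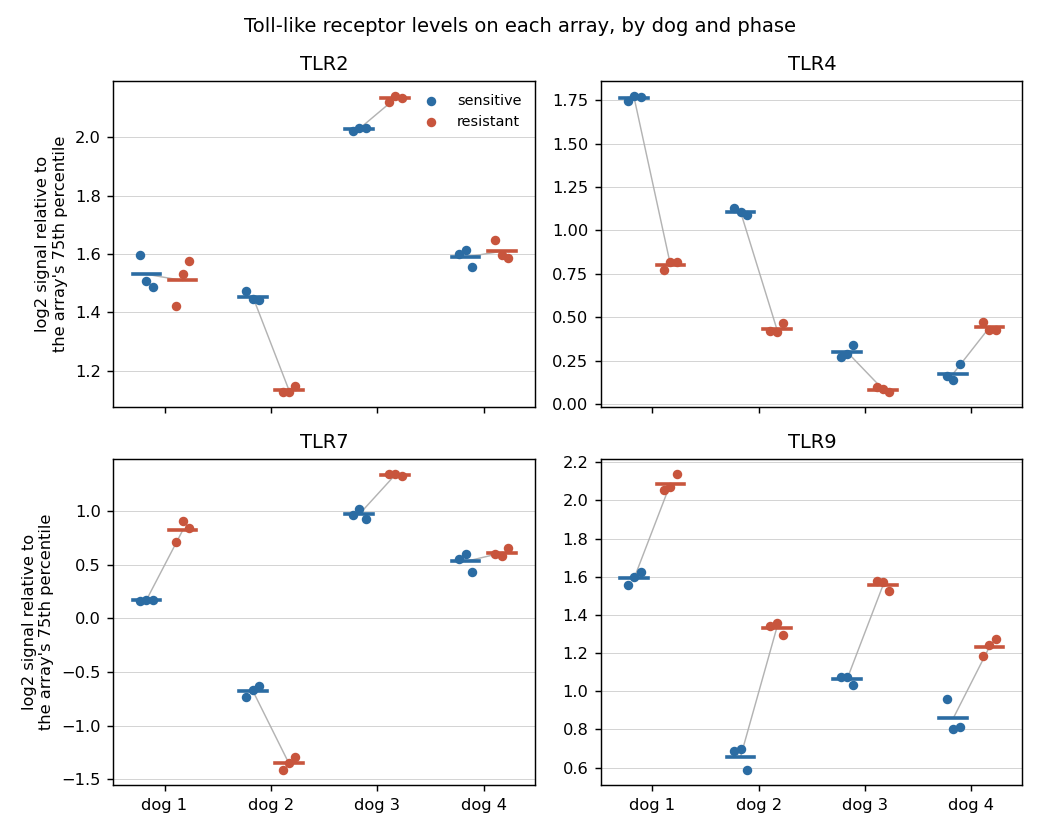
Level of each receptor (brighter probe, log2 signal relative to the 75th percentile of the array, y axis) on every array by dog and phase, 1 point per array and a bar at each group mean. TLR9 lies higher in the resistant phase in every dog, and TLR7 is lowest in dog 2.

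TLR2, the receptor for bacterial lipoproteins, showed small differences between phases in dogs 1 and 4, which depended on the scaling and the probe. In dog 1 the sensitive arrays read 1.60, 1.51 and 1.49 and the resistant arrays 1.42, 1.53 and 1.58. In dog 4 they read 1.60, 1.61 and 1.56 and then 1.65, 1.60 and 1.59. The phases overlapped in both dogs, with differences of -0.021 (SE 0.034, limma adjusted p = 0.624) and 0.020 (SE 0.034, limma adjusted p = 0.676), whose signs turned to 0.16 (limma adjusted p = 0.0330) and -0.041 (0.637) under median scaling. The mean of both TLR2 probes gave 0.14 in dog 4 (limma adjusted p = 0.00112). In dog 1, leaving out sensitive array 1 or resistant array 1 also turned the sign, to 0.011 and 0.022.

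In dog 2, TLR2 read 1.47, 1.44 and 1.44 in the sensitive and 1.13, 1.13 and 1.15 in the resistant phase. The difference was -0.32 (SE 0.034, limma adjusted p = 1.87e-07) with no overlap, and -0.17 under median scaling (limma adjusted p = 0.0177). In dog 3 the arrays read 2.02, 2.03 and 2.03 and then 2.12, 2.14 and 2.14. That difference of 0.10 (SE 0.034, limma adjusted p = 0.0189) also came without overlap, but depended on the processing. It was 0.093 with the slide as a block (limma adjusted p = 0.0829), 0.074 with quantile normalisation (0.0808), 0.059 from the authors' value table (0.288) and 0.028 after normexp (0.597). Leaving out sensitive array 1 or resistant array 2 gave 0.10 with adjusted p-values of 0.0509 and 0.0554. Median scaling gave 0.19 (0.0148), and the mean of both probes 0.21 (1.81e-05). The dimmer TLR2 probe gave -0.10, -0.27, 0.31 and 0.26 in dogs 1 to 4 with no overlap in any. In dogs 1 and 4 only the dimmer probe separated the phases (limma adjusted p = 0.0150 in dog 1 and 3.36e-06 in dog 4), although over the 8 groups of dog and phase their levels followed each other with r = 0.955. By the brighter probe, resistant and sensitive dog 3 stood at the top and resistant dog 2 at the bottom. The 5 groups between them overlapped with a neighbour, and the group means spanned a factor of 2.00.

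TLR4, the lipopolysaccharide receptor, showed the widest gap between phases of any receptor here. In dog 1 the sensitive arrays read 1.74, 1.78 and 1.77 and the resistant arrays 0.77, 0.82 and 0.82. The resistant phase was lower by 0.96 (SE 0.028, limma adjusted p = 2.89e-15), or 1.94-fold, and 15.0% of transcripts had a larger difference in that dog. Quantile normalisation put it just past the 2-fold rule, at -1.004. In dog 2 the arrays read 1.13, 1.10 and 1.09 and then 0.42, 0.41 and 0.47, a difference of -0.67 (SE 0.028, limma adjusted p = 2.61e-13), or 1.59-fold.

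In dog 3, TLR4 was already low in the sensitive phase, at 0.27, 0.29 and 0.34, and read 0.10, 0.09 and 0.07 in the resistant phase. The difference was -0.22 (SE 0.028, limma adjusted p = 3.79e-06), and under median scaling its adjusted p was 0.0812. Dog 4 went the other way, from 0.16, 0.14 and 0.23 to 0.47, 0.43 and 0.43, higher by 0.27 (SE 0.028, limma adjusted p = 4.69e-07). In no dog did the phases overlap. From the top, the groups ran sensitive dogs 1 and 2, resistant dogs 1, 4 and 2, sensitive dogs 3 and 4, and resistant dog 3, and only resistant dogs 4 and 2 overlapped. The sensitive means spanned 1.59 across dogs and the resistant means 0.72. The dimmer probe, printed at 5 spots per array, gave -0.91, -0.63, -0.16 and 0.39 in dogs 1 to 4 and followed the brighter one over the 8 groups with r = 0.989. Its spots had a median SD of 0.0649 within an array, with a highest value of 0.304 on resistant array 3 of dog 2.

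TLR7, the endosomal receptor for single-stranded RNA, spanned the widest range of levels of the 4 genes, a factor of 6.45 between its highest and lowest group means. Dog 3 was highest, at 0.96, 1.02 and 0.93 in the sensitive and 1.34, 1.35 and 1.32 in the resistant phase. Dog 2 was lowest, at -0.73, -0.66 and -0.63 and then -1.41, -1.35 and -1.29. The resistant phases of these dogs lay further apart than the sensitive ones, with a difference between phases of 0.37 (SE 0.048, limma adjusted p = 4.52e-06) in dog 3 and of -0.68 (SE 0.048, limma adjusted p = 6.73e-10) in dog 2.

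In dog 1, TLR7 read 0.17 on each of the 3 sensitive arrays and 0.71, 0.90 and 0.84 on the resistant arrays. It was higher by 0.65 (SE 0.048, limma adjusted p = 2.05e-09), or 1.57-fold, with no overlap. In dog 4 the arrays read 0.55, 0.60 and 0.44 and then 0.60, 0.58 and 0.65, overlapping, with a difference of 0.079 (SE 0.048, limma adjusted p = 0.193). From the top, the groups ran resistant and sensitive dog 3, resistant dog 1, resistant and sensitive dog 4, sensitive dog 1, and sensitive and resistant dog 2. Only the groups of dog 4 overlapped with their neighbour.

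TLR9, the endosomal receptor for CpG DNA, was higher in the resistant phase of every dog, with no overlap of arrays in any. In dog 1 the arrays read 1.56, 1.60 and 1.62 and then 2.05, 2.07 and 2.14, a difference of 0.49 (SE 0.041, limma adjusted p = 1.09e-08). In dog 2 they read 0.69, 0.70 and 0.59 and then 1.34, 1.36 and 1.30, the largest difference of the 4 dogs at 0.67 (SE 0.041, limma adjusted p = 8.35e-11), or 1.60-fold. Dog 3 gave 1.08, 1.07 and 1.03 and then 1.58, 1.57 and 1.52, a difference of 0.49 (SE 0.041, limma adjusted p = 1.53e-08). Dog 4 gave 0.96, 0.80 and 0.81 and then 1.19, 1.24 and 1.27, a difference of 0.37 (SE 0.041, limma adjusted p = 9.59e-07). Of all transcripts, 15.3% had the same sign in all 4 dogs (8.29% higher, 7.01% lower). With no overlap of arrays in any dog, 2.15% were higher and 2.91% lower. From the top, the order of group means was resistant and sensitive dog 1, resistant dogs 3, 2 and 4, and sensitive dogs 3, 4 and 2. The arrays of neighbours overlapped between sensitive dog 1 and resistant dog 3 and nowhere else.

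Where a slide held both phases, the arrays on it alone gave close values for TLR4, TLR7 and TLR9. For TLR4 these were -0.99, -0.66 and -0.20 in dogs 1 to 3, and for TLR9 they were 0.46, 0.74 and 0.51. For TLR7 they were 0.54, -0.72 and 0.37, and for TLR2 they were -0.11, -0.31 and 0.093. The TLR2 value in dog 1 (limma adjusted p = 0.0401) was larger than the -0.021 from all arrays and rests on a single resistant array. Each rests on 1 array of one phase against 3 of the other, and dog 4 had no such slide.

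**Figure D2:**
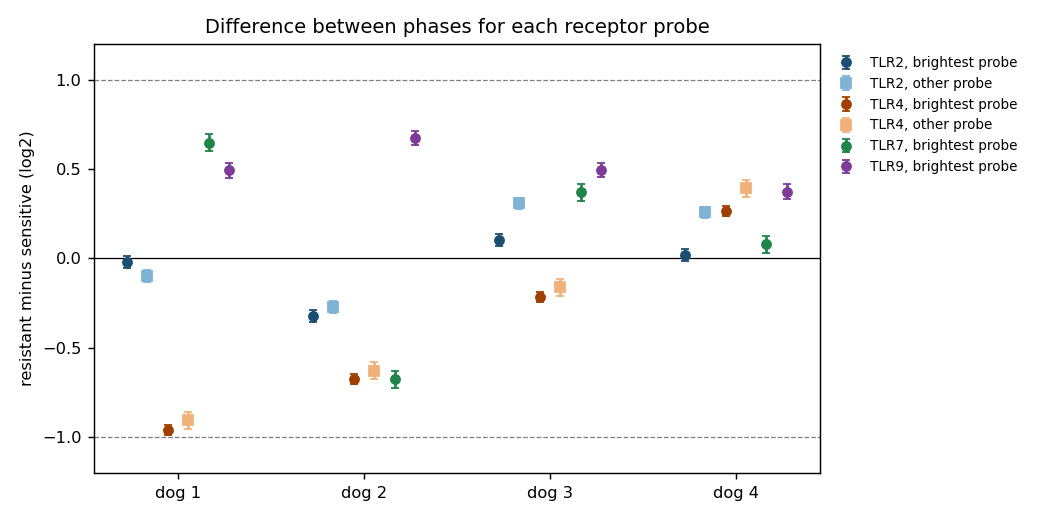
Difference between phases (resistant minus sensitive, log2, y axis) of each receptor probe in each dog (x axis), with its SE as error bars and dashed lines at a 2-fold difference. TLR9 lies between 0.37 and 0.67 in all 4 dogs, while TLR4 runs from -0.96 to 0.27 and TLR7 from -0.68 to 0.65.

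With the dog as the unit, no receptor passed the test. The mean difference over the 4 dogs was 0.51 for TLR9 (SE 0.13, limma adjusted p = 0.695, unadjusted p = 0.00962, higher in 4 of 4 dogs), or 1.42-fold. It was -0.40 for TLR4 (SE 0.24, limma adjusted p = 0.879, lower in 3 of 4). For TLR7 it was 0.10 (SE 0.25, limma adjusted p = 0.946, higher in 3 of 4), and without dog 1 it was -0.076. For TLR2 it was -0.054 (SE 0.14, limma adjusted p = 0.952, lower in 2 of 4), and it turned to 0.034 without dog 2 and to 0.034 under median scaling. TLR4 ranged from -0.62 without dog 4 to -0.21 without dog 1, and TLR9 from 0.45 without dog 2 to 0.55 without dog 4.

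An exact two-sided sign permutation test gave p = 0.125 for TLR9, the smallest that 4 dogs allow, 0.375 for TLR4, and 0.75 for both TLR2 and TLR7. The limma test across dogs called 0 of 27719 transcripts (0%), with a lowest adjusted p of 0.364, and 1602 had an unadjusted p under 0.05. A fit of all 24 arrays with dog and phase as a random block gave the same means for TLR4 and TLR9 with adjusted p-values of 0.0441 and 2.55e-04, and called 1755 transcripts. That fit takes its residual degrees of freedom from arrays, not dogs, with an estimated correlation of 0.805 within groups, and the arrays may be technical repeats.

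The dogs differed from each other in how far the phases lay apart. The limma F-test of the dog-by-phase interaction gave adjusted p = 1.89e-06 for TLR2, 3.12e-14 for TLR4, 3.50e-11 for TLR7 and 0.00152 for TLR9, where 78.8% of all transcripts passed. TLR4 and TLR7 differed in all 6 pairs of dogs. TLR2 did not pass between dogs 1 and 4 (limma adjusted p = 0.494) or 3 and 4 (0.173). TLR9 did not pass between dogs 1 and 3 (0.982), 1 and 4 (0.0928) or 3 and 4 (0.104). Of all transcripts, 60.1% passed between dogs 1 and 2, 52.5% between 1 and 3, 54.7% between 1 and 4, 50.2% between 2 and 3, 54.6% between 2 and 4 and 43.5% between 3 and 4. The range of the 4 differences was 0.30 for TLR9, and 92.5% of transcripts had a wider one. For TLR4 and TLR7 the range was 1.22 and 1.32, exceeded by 33.6% and 30.4% of transcripts.

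Phase accounted for 35.7% of the sum of squares between arrays for TLR9, against 61.9% for the dog and 1.59% for the interaction. For TLR4 the shares were 14.0%, 66.4% and 19.3%. For TLR2 and TLR7 the dog held 91.0% and 90.7%, and the phase 0.816% and 0.388%. Over all transcripts the median share of phase was 4.01% and that of the dog 56.7%, and TLR9 stood at percentile 96.3 for its phase share. These shares are descriptions, since the 3 arrays of a group share 1 dog and phase.

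Over the 8 group means, TLR2 and TLR7 had similar profiles (r = 0.854). The other pairs of receptors ranged from r = -0.399 for TLR2 and TLR4 to 0.326 for TLR7 and TLR9. Groups of 1 dog share an animal, and all values share the scaling of their arrays. These r cover levels between dogs as well as phases, so a high r need not mean a like difference between phases. Among 717 other genes with a symbol, those most like TLR7 were MX1 (r = 0.975), OAS3 (0.975), MGMT (0.970), OAS2 (0.966) and LGALS9 (0.966). MX1 is an antiviral GTPase, and OAS2 and OAS3 make the short oligoadenylates that activate RNase L. MGMT differed between phases by -0.029, -1.60, 0.025 and 0.21 in dogs 1 to 4, where TLR7 differed by 0.65, -0.68, 0.37 and 0.079. Of the unnamed transcripts, 17 were at least as alike to TLR7 as MX1.

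For TLR2 the most alike included HEY1 (r = 0.947), SSPO (0.905), OR1E1 (0.861) and TLR7 itself. For TLR4 they were XYLT1 (0.861), MET (0.856), ANXA4 (0.804), MT2A (0.792) and PPP1CB (0.792). For TLR9 they were ABCC1 (0.889), ZBED5 (0.868), PDE6B (0.841), OCLN (0.834) and AAMP (0.832). ABCC1 encodes a drug efflux transporter of the ABC family. It differed between phases by 0.21, 1.06, 0.28 and 0.047 in dogs 1 to 4. HEY1 was lower in the resistant phase of all 4 dogs, by 0.34, 1.08, 0.88 and 0.31, whereas TLR2 differed in sign between dogs. Of the unnamed transcripts, 10 were at least as alike to TLR2 as HEY1, 65 to TLR4 as XYLT1, and 51 to TLR9 as ABCC1. OCLN was well above background on only 6 arrays, MET on 8, SSPO on 15 and OR1E1 on 21. Their r values therefore rest in part on signal that was not well above background. The other genes named in this paragraph were well above background on every array.

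**Figure D3:**
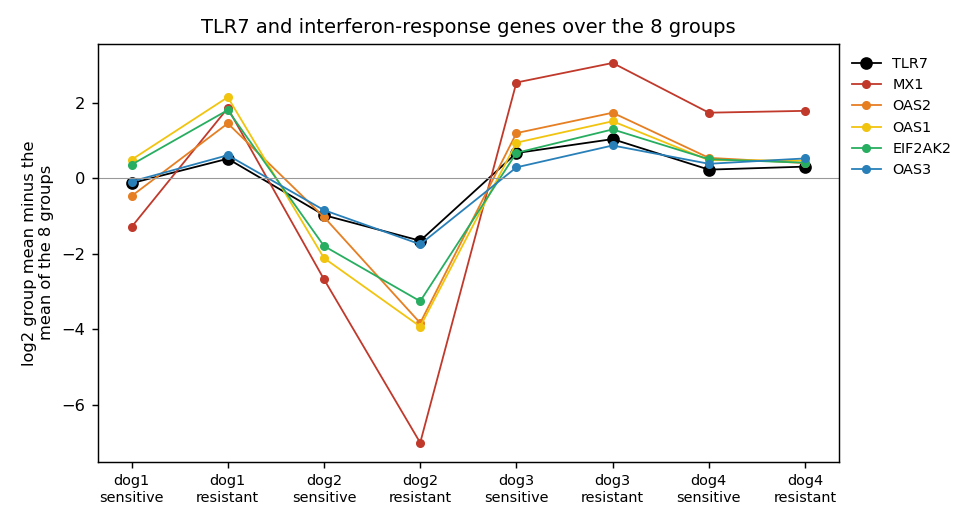
Group means of TLR7 and of 5 interferon-induced genes (log2, each minus its own mean over the 8 groups, y axis) for every dog and phase (x axis). All 6 are lowest in the resistant group of dog 2. TLR7, MX1, OAS2 and OAS3 are highest in the resistant group of dog 3, and OAS1 and EIF2AK2 in that of dog 1.

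Of 8 interferon targets measured by name, MX1, OAS1, OAS2, OAS3 and EIF2AK2 followed TLR7 over the 8 groups with r from 0.952 to 0.975. Without the groups of dog 2 these r lay between 0.608 (EIF2AK2) and 0.942 (OAS2) over 6 groups. CXCL10, a chemokine that attracts T cells, had r = 0.346 with all groups and 0.895 without dog 2. IFNA7, a type I interferon gene, had r = -0.066 with all groups and -0.564 without dog 2. IFNG was well above background in the sensitive phase of dog 2 alone and is not compared. TLR2 also followed MX1, OAS1, OAS2, OAS3 and EIF2AK2, with r from 0.683 to 0.815 over the 8 groups. Without dog 2 these lay between 0.144 and 0.648. For TLR9 they ran from 0.171 to 0.468, and from -0.173 to 0.762 without dog 2. For TLR4 they ran from -0.343 to -0.094, and from -0.935 to -0.138 without dog 2. OAS1, OAS3 and EIF2AK2 are named here after their values were seen.

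Beyond the receptors, 29 of 108 listed genes of the pathway were measured by name. Other Toll-like receptors, the adaptors and kinases, the inhibitors and the co-receptors CD14, LY96 and CD180 were not analysed here, because no accession on the array could be given those symbols. The called members numbered 5 higher and 9 lower in dog 1, 1 and 14 in dog 2, 1 and 4 in dog 3, and 2 and 0 in dog 4. All transcripts were called higher in 3.83%, 3.98%, 1.36% and 4.06% and lower in 8.10%, 9.84%, 5.39% and 1.50%. The median difference of the 29 genes was -0.43, -1.46, 0.08 and -0.01 in dogs 1 to 4.

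Between receptor and nucleus, only a chaperone and a transcription factor subunit could be read. HSP90B1, the endoplasmic reticulum chaperone that folds Toll-like receptors, differed by 0.85, 0.17, -0.091 and 0.21 in dogs 1 to 4 and passed the 2-fold rule in none. NFKB1, the p50 subunit of NF-kB, differed by 0.35, 0.21, 0.081 and -0.016 and also passed in none.

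Here and below, genes that fell or rose are those that passed the 2-fold rule, and smaller differences are not counted. Of 17 measured inflammatory targets, 8 fell in dog 1 and none rose, and 6 fell and 1 rose in dog 2. Of the same 17, 4 fell and 1 rose in dog 3, and 2 rose and none fell in dog 4. Of all transcripts, 8.10%, 9.84%, 5.39% and 1.50% fell in dogs 1 to 4, and 3.83%, 3.98%, 1.36% and 4.06% rose. The median difference of the 17 targets was -0.74, -0.63, -0.46 and 0.038. CCL4, a chemokine of macrophages and T cells, fell by 3.16 in dog 1, fell by 6.85 in dog 2 and fell by 1.17 in dog 3, and differed by -0.41 in dog 4. CCL3, its close relative, fell by 3.59 in dog 1, fell by 6.43 in dog 2 and fell by 1.02 in dog 3, and differed by 0.53 in dog 4. In dog 3 only 1 of the 3 resistant arrays was well above background for CCL3. CCL5, a T cell chemokine, fell by 2.91 in dog 1 and fell by 6.24 in dog 2. CCL20, which attracts cells with CCR6, fell by 4.67 in dog 3 and rose by 1.25 in dog 4.

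The other calls in small counts are named after their values were seen. IL6, an inflammatory cytokine, was the gene that rose in dogs 2 and 3. It rose by 1.86 in dog 2, where 1 of 3 sensitive arrays was well above background, and was at least 2.98-fold higher in dog 3, where none was. Such a bound sets the bright group against the lowest signal well above background on the dim arrays. PTGS2, the inducible cyclooxygenase, was the other gene that rose in dog 4. No sensitive array was well above background there, and the bound was at least 1.996-fold, just under 2-fold. CD86, a costimulatory ligand, fell by 1.11 in dog 3. CCL5 stands both here and among the cytotoxic cell markers, and CD40 both here and among the B cell markers.

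Of 8 measured interferon targets, 5 rose in dog 1, where 3.83% of all transcripts did, and 6 fell in dog 2, where 9.84% did. None of the 8 passed in dogs 3 and 4. Their median difference was 1.55, -2.31, 0.53 and 0.019 in dogs 1 to 4. MX1 rose by 3.15 (SE 0.034) in dog 1 and fell by 4.33 in dog 2, and differed by 0.52 and 0.049 in dogs 3 and 4. OAS2 rose by 1.92 (SE 0.056) in dog 1 and fell by 2.80 in dog 2. CXCL10 rose by 2.88 in dog 1 and fell by 8.40 in dog 2, where 2 of 3 resistant arrays were well above background. IFNG, the type II interferon, was at least 11.7-fold lower in the resistant phase of dog 2, whose resistant arrays were not well above background. The TLR7 differences of 0.65 and -0.68 in these dogs had the same signs as those of MX1 and OAS2.

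Other innate sensors were read from CASP4, a caspase that binds lipopolysaccharide inside the cell, and CASP12, a related caspase. CASP4 fell by 1.43 in dog 1 and fell by 3.22 in dog 2, and CASP12 fell by 2.97 in dog 2. Neither passed in dogs 3 and 4.

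**Figure D4:**
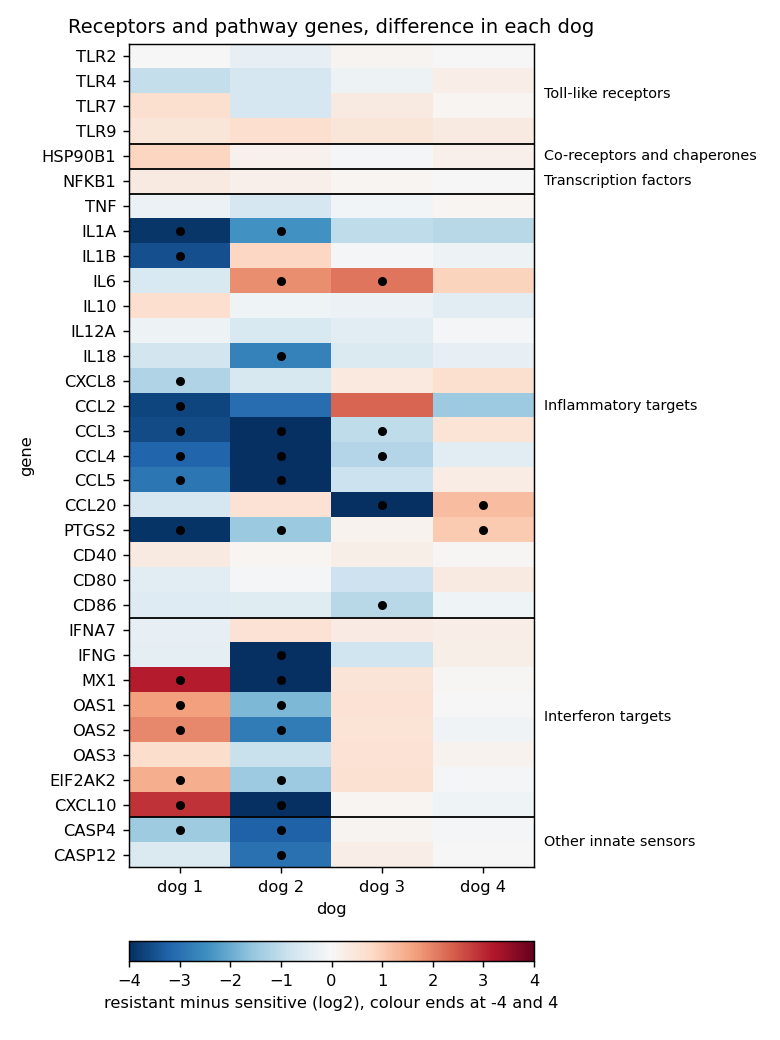
Difference between phases (resistant minus sensitive, log2) in each dog for the receptors and the measured genes of their pathway, grouped by role (rows; colour from -4 to 4; dots mark calls at 2-fold and an adjusted p under 0.05). The receptors lie within 0.96 of 0, while chemokines and interferon targets reach -6.85 and -8.40 in dog 2.

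Markers of the cells in the aspirates differed between phases too, and their part in the receptor values was not tested. Sums over markers of stroma and of other dendritic cells, given last, were lower in the resistant phase of all 4 dogs, with no overlap. TLR9 was higher in all 4, and its relation to these sums was not tested. The sum of the B cell markers MS4A1 (CD20) and CD40, 2 of 10 listed, was high in all groups, from 54.7 to 82.7 times the 75th percentile of the array. It ran from 54.7 to 56.3 in the sensitive and from 62.9 to 67.0 in the resistant phase of dog 1. The ranges were 73.6 to 77.8 and 78.2 to 82.7 in dog 2, 58.7 to 60.9 and 67.7 to 72.2 in dog 3, and 61.3 to 63.8 and 60.6 to 62.2 in dog 4. CD40 makes up most of this sum, and MS4A1 did not follow it in every dog. MS4A1 differed by -0.29, 0.16, 0.21 and -0.28 in dogs 1 to 4, and CD40 by 0.35, 0.067, 0.22 and 0.038, all under 2-fold. TLR9 was higher in the resistant phase of all 4 dogs, with MS4A1 lower in dogs 1 and 4 and higher in dogs 2 and 3. The CD40 difference was positive in all 4 dogs, as for TLR9, but did not pass in dog 2 (limma adjusted p = 0.182) or dog 4 (0.488).

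The monocyte and macrophage markers CD163, FCGR1A, CYBB and C5AR1, 4 of 14 listed, summed to 5.30 to 5.36 and then 6.08 to 6.18 in dog 1. They summed to 32.6 to 35.0 and then 25.3 to 26.8 in dog 2, 11.9 to 12.1 and then 16.2 to 17.8 in dog 3, and 18.2 to 18.9 and then 13.4 to 13.8 in dog 4. CYBB, which B cells also express, sets the direction of this sum, and the 4 markers did not share one direction. CYBB differed by 0.62, -0.38, 0.54 and -0.44 in dogs 1 to 4. CD163 differed by 0.53, -0.74, -1.33 and 0.33, FCGR1A by -3.67, 1.62, -2.64 and 0.46, and C5AR1 by -4.93, -2.18, -0.028 and -0.55. The median of the 4 was -1.57, -0.56, -0.68 and -0.056, with the sign of TLR4 in dogs 1 to 3 and not in dog 4. The sum changed in the direction of TLR4 in dog 2 only. FCGR1A and C5AR1 passed the 2-fold rule as lower in dog 1, and CD163 and FCGR1A did so in dog 3. In dog 2 C5AR1 passed as lower and FCGR1A as higher, and none passed in dog 4.

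The neutrophil markers CAMP, MMP9, CXCR2 and ELANE, 4 of 12 listed, summed to 2.16 to 2.35 in the sensitive and 0.239 to 0.296 in the resistant phase of dog 1. In dog 3 they went from 3.17 to 3.27 down to 0.121 to 0.159, and in dog 2 from 0.0922 to 0.144 up to 1.09 to 1.13. In dog 4 they went from 0.479 to 0.591 down to 0.429 to 0.449. CAMP is the largest part of this sum in the groups where it is high. The median difference of the 4 genes was -2.07, 1.78, -3.51 and 0.056. In dog 1 ELANE passed the 2-fold rule as higher, by 1.44, while the other 3 passed as lower. TLR4 and the neutrophil sum were both lower in the resistant phase of dogs 1 and 3, and differed in opposite directions in dogs 2 and 4.

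The T cell markers CD4, CD8A, CD28, ICOS and CTLA4, 5 of 10 listed, summed to 4.41 to 4.65 in the sensitive and 0.273 to 0.284 in the resistant phase of dog 2. In that resistant phase CD28 and ICOS were not well above background on any array. The NK and cytotoxic markers KLRD1 and CCL5, 2 of 9 listed, went from 36.1 to 37.0 down to 0.457 to 0.510 in dog 2 and, in dog 1, from 1.23 to 1.40 down to 0.188 to 0.212. CCL3, CCL4, CCL5, CXCL10 and IFNG were lower in that phase of dog 2 as well. The T cell sum was also lower in dog 1, from 0.394 to 0.459 down to 0.248 to 0.275. In dog 3 it went from 0.482 to 0.527 down to 0.315 to 0.429. The cytotoxic sum of dog 3 went from 0.691 to 0.757 down to 0.355 to 0.373. In dog 4 the T cell sum lay at 0.350 to 0.415 and then 0.502 to 0.537, and the cytotoxic sums of its phases overlapped. TCF4, the only one of 5 plasmacytoid dendritic cell markers measured, went from 0.762 to 0.814 down to 0.459 to 0.497 in dog 1, where TLR7 and TLR9 were higher. In dog 2 TCF4 went from 0.837 to 0.937 up to 1.11 to 1.18, where TLR7 was lower and TLR9 higher. TCF4 was also higher in dogs 3 and 4, by 0.36 and 0.16. In those dogs TLR7 differed by 0.37 and 0.079, and TLR9 by 0.49 and 0.37. The stromal markers, 8 of 10 listed, summed to medians of 2.41, 8.84, 15.5 and 4.76 in the sensitive phase of dogs 1 to 4. In the resistant phase these were 1.21, 2.74, 4.99 and 3.19. Of the 8 genes, 3, 6, 6 and 2 fell, and 1 rose in dog 1. The other dendritic cell markers were FLT3, CD1C and CLU, 3 of 8 listed. Their median sums went from 67.3, 298, 162 and 89.5 to 27.6, 96.0, 105 and 79.7. CLU makes up most of this sum, and CD1C differed by 0.23, 0.56, 1.12 and 0.63.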

How the data were processed

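Log2 levels came from the processed spot intensity that the authors deposited. The software was Agilent Feature Extraction 10.7.3.1, per the submitters' processing notes, and its signal was already background-subtracted. RNA of the aspirates was Cy3-labelled, per the labels' protocols. The value table deposited by the authors held the unprocessed median intensity of every spot (largest difference 0), so its scale is linear and uncentred. A genome build was not given in the sources used here.

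Control and outlier spots were left out, and repeat spots averaged. Probes had to be well above background on every array of 1 group or more, and the brightest stood for its gene. Accessions were named, without versions, from a RefSeq table of UU_Cfam_GSD_1.0: 832 of 35908 matched. Within dogs, limma 3.58.1 (R 4.3.3) was fitted to 24 arrays in 8 groups, and across dogs to the 8 means, blocked by dog; both phases come from 1 animal. Tests were two-sided and were checked on simulated data. Pathway and marker lists name up to 4 called members of largest difference each, and the 5 genes most alike each receptor; exceptions are stated, and 1 gene that this rule picks is not reported here. The receptors, lists and tests were chosen with earlier results of these data known. Alternatives covered scaling, background, filters, probes, slides and left-out arrays or dogs.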

Additional observations from a re-analysis of the deposited data

Results flagged for a closer look

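The difference between phases itself differed between dogs for each receptor in limma's F-test of the dog-by-phase interaction. The adjusted p was 1.89e-06 for TLR2, whose difference ran from -0.32 in dog 2 to 0.10 in dog 3. It was 3.12e-14 for TLR4, which ran from -0.96 in dog 1 to 0.27 in dog 4, and 3.50e-11 for TLR7, which ran from -0.68 in dog 2 to 0.65 in dog 1. It was 0.00152 for TLR9, where all 4 dogs were higher in the resistant phase, by 0.37 to 0.67. Of all transcripts, 78.8% passed this test, which measures dogs against the spread between arrays. Without dog 4, an alternative chosen after seeing the data because its resistant arrays lay alone on a slide, the adjusted p-values were 1.25e-06, 4.10e-11, 1.38e-11 and 0.0142 in the same order.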

How the results depend on the processing

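TLR9 was higher in each dog, and TLR4 kept its sign, under every alternative run for that dog; the slide as a block and the within-slide values cover dogs 1 to 3 only. Median scaling turned TLR2 to 0.16 in dog 1, -0.041 in dog 4 and 0.034 across dogs, and gave 1 pathway gene higher in dog 4. Quantile normalisation put TLR4 in dog 1 at -1.004, past the 2-fold rule, with 1 pathway gene higher and 1 lower in dog 4. Normexp with quantile normalisation, run on the median signal with an offset of 50, called 848, 1547, 586 and 180 transcripts in dogs 1 to 4. The authors' value table called 1292, 2152, 852 and 235 and turned TLR2 in dog 1 to 0.022. Both gave 0 pathway genes higher in dogs 2, 3 and 4 and 2 lower in dog 3. No filter on dim probes called 2581 transcripts in dog 4. Probes well above background on all 24 arrays left 1533, 2138, 866 and 435 transcripts, with 4 pathway genes lower in dog 1 and 9 in dog 2, and 0, 0 and 1 higher in dogs 2, 3 and 4; fewer genes were tested there. With the slide as a block, 2 pathway genes were higher in dog 2. With all 24 arrays and the group as a random block, TLR4 stood at -0.40 (adjusted p = 0.0441), TLR9 at 0.51 (adjusted p = 2.55e-04), and 1755 transcripts were called. The cause of these shifts was otherwise not tested.

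Leaving out 1 array gave TLR2 in dog 1 between -0.054 and 0.022, 1 to 2 pathway genes higher in dog 3 and 1 to 2 in dog 4. Leaving out 1 dog gave -0.11 to 0.034 for TLR2 and -0.076 to 0.37 for TLR7 across dogs. Array numbers did not pair arrays across phases (correlations of deviations -0.13 to 0.09). The replicate block changed no call, with 3267 transcripts called in dog 1 and TLR9 at 0.49 there.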
